A study of Mus musculus with 74 samples.

Results

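The comparison is between the mean gene expression of primary tumors (PTs) from 2 mouse mammary tumor models, one driven by the polyoma virus middle T antigen on a hybrid background (PyMT-F1) and one driven by Her2 on the FVB background. Genes were joined by Ensembl identifier, and a gene was kept when its mean was at least 10 in both tables or at least 50 in one. Of 16880 genes with a PT mean in both tables, 15977 were kept, against 20869 distinct identifiers over the 3 tables of the series that share this annotation. At the edge of this minimum, Klrb1b was kept with deposited means of 50.1 in PyMT-F1 and 8.48 in Her2, and Epgn was left out with 49.9 and 9.86. The series holds 74 labelled samples of PTs and lung metastases (Lung mets) from models that differ in oncogene or in mouse strain. Only the authors' group means were analysed here, with no value of a single animal, so no difference below could be set against the spread between animals and none carries a test, an SD or an n.

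The Her2 group was FVB/N-Tg(MMTVneu)202Mul/J, in which the mammary tumor virus (MMTV) promoter drives the rat Her2 gene, and its labels list 6 female PTs. The PyMT-F1 group descended from FVB/N-Tg(MMTV-PyVT)634Mul/J males, in which the same promoter drives middle T, crossed to females of another inbred strain. Its table and the matching labels name AKR/J, with 6 PTs, whereas the fold changes in the same table equal those which the supplement of the study lists for C57BL/6J, so the strain is unsettled and the cross is called PyMT-F1 here. The MMTV promoter is active mainly in mammary epithelium, and neither group includes normal gland. Per the methods, all PTs of a PyMT animal were combined at the humane endpoint, whereas Her2 tumors were removed by surgery at or before a size limit. The labels describe harvest at the endpoint instead. Driver and strain differ between both groups and cannot be told apart, and harvest may differ with them. In bulk tissue, fewer cells of a type and less RNA per cell cannot be told apart either.

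Her2 (ERBB2) is a receptor tyrosine kinase that has no ligand of its own and signals as a dimer, most strongly with ERBB3, through the RAS-ERK and PI3K-AKT pathways. Middle T is a membrane-anchored viral protein without enzyme activity that recruits Src-family kinases and is then bound by Shc, phospholipase C gamma and PI3K, which feeds the same pathways from inside the cell. Tumors of both kinds are usually placed with the luminal class, named after the milk-facing cells of the mammary duct. Luminal progenitors give rise to alveolar cells, which make milk. Hormone-sensing luminal cells carry the estrogen and progesterone receptors, and basal or myoepithelial cells surround the luminal cells.

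Values below are scaled means, which are the deposited group means of normalized counts per gene, with the PyMT-F1 column multiplied by 0.986 so that the median joined gene has the same value in both columns. They are not divided by gene length, so a value is compared between groups for one gene and never between genes. A ratio is given as a fold or, for lists, as the median log2 of PyMT-F1 over Her2, so that a negative value is higher in Her2. A gene is counted as higher in one group when its fold was at least 2. By this measure 906 genes (5.67%) were higher in PyMT-F1 and 1504 (9.41%) were higher in Her2, together 15.1%, while 66.1% of genes lay within 1.5-fold. These shares over all genes are the ones to set beside the count of any list below. At least 4-fold, 221 genes (1.38%) were higher in PyMT-F1 and 371 (2.32%) in Her2. The Lung met means of the same tables come from other samples of the same models, which the labels pair with the PTs by animal. They thus share animals, strain, table and normalization with the PT means and are not independent of them. There, 8.69% of the same genes were at least 2-fold higher in PyMT-F1 and 11.3% in Her2. In Lung mets, 886 of the 906 genes had the same direction and 647 (71.4%) were again at least 2-fold higher in PyMT-F1, and 1397 of the 1504 genes had the same direction and 1010 (67.2%) were again at least 2-fold higher in Her2.

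**Figure D1:**
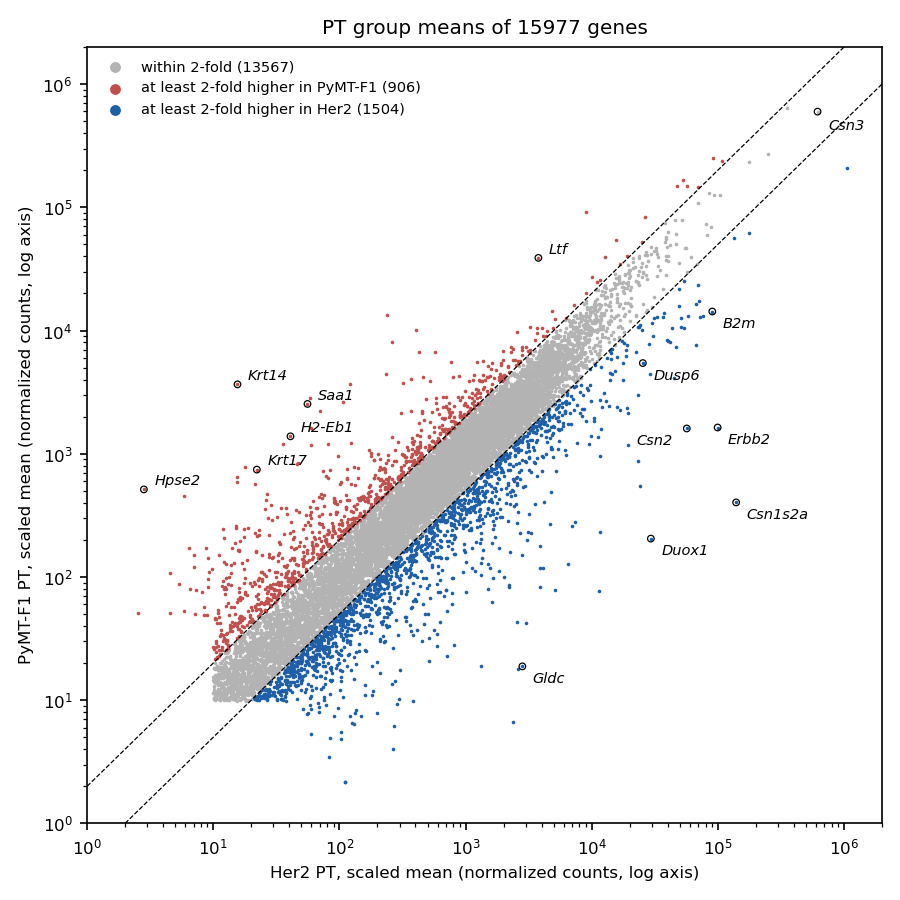
Scaled PT mean of each of the 15977 genes in Her2 (horizontal, log axis) and PyMT-F1 (vertical, log axis), with dashed lines at 2-fold in either direction and named genes labelled. Most genes lie near the diagonal, with 906 above the upper line and 1504 below the lower one, and Erbb2, Csn1s2a and Krt14 stand far from it.

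Of 3 compared ERBB receptor genes 2 were higher in Her2. Erbb2 had a scaled mean of 1633 in PyMT-F1 and 99569.9 in Her2, 61.0-fold higher in Her2. The Her2 transgene encodes the rat protein, and how its reads were divided between rat transgene and mouse gene was not given, so the Erbb2 value may hold both. Erbb3, the kinase-impaired partner that couples ERBB2 to PI3K, was 2.71-fold higher in Her2 (3608 in PyMT-F1, 9766 in Her2). Egfr, the receptor of EGF, stood at 3327 and 3556, a fold of 1.07. Erbb4 had a value in the PyMT-F1 table only, at 132. On the same scale, the PT means of the BALB and SEAGN crosses, which carry the same PyMT transgene, were 2421 and 2549 for Erbb2 and 5732 and 4799 for Erbb3. Both genes were thus lowest in the PyMT-F1 table and highest in Her2 among these 4 tables.

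Among the ERBB ligands, 6 of 11 listed genes could be compared, of which 2 were higher in Her2 and 1 in PyMT-F1. Egf itself stood at 117 in PyMT-F1 and 1132 in Her2, 9.64-fold higher in Her2. Tgfa, the other classical EGFR ligand, was 5.02-fold higher in Her2 (454 and 2279.7). The neuregulins bind ERBB3 and ERBB4 instead, and Nrg1 went the other way, at 231 in PyMT-F1 and 68.6 in Her2, a fold of 3.37. Nrg2 (378 and 547), betacellulin (261 and 293) and heparin-binding EGF (229 and 222) differed by less than 2-fold. Of the rest, amphiregulin (Areg) had a value of 63.7 in the PyMT-F1 table only. Nrg4 had a value of 45.9 in Her2 and an entry with no number in PyMT-F1. Epgn was under the minimum and 2 had no row in either table.

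Genes of the host proteins that middle T recruits had like RNA means in both models. None of 13 listed genes reached 2-fold in either direction, against 15.1% of all genes, and their median log2 ratio was 0.07. At the ends of this range, the kinase Src stood at 2219 in PyMT-F1 and 3514 in Her2 and the PI3K regulatory subunit Pik3r1 at 19364 and 11795.

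Genes that ERK signaling is known to induce, most of them feedback inhibitors of the pathway itself, were mostly higher in Her2. Of 16 compared, 7 were higher in Her2 and 1 in PyMT-F1, with a median log2 ratio of -0.85 against a median of -0.00019 over all genes. Dusp6, the phosphatase that removes the activating phosphates from ERK, was 4.67-fold higher in Her2 (5442 in PyMT-F1, 25418 in Her2). The ETS factors Etv4 (304 and 1283) and Etv5 (3954 and 13914) were 4.22-fold and 3.52-fold higher. The inhibitors fall into several families. Of the Sprouty genes, Spry1 (4.01-fold) and Spry4 (3.21-fold) were higher in Her2, whereas Spry2 reached 1.64-fold. Of the phosphatases, Dusp4 was 3.40-fold higher in Her2 (414 and 1407), whereas Dusp5 was 1015 and 741. Of the Spred genes none reached 2-fold, with Spred1 at 3254 and 6257, Spred2 at 860.4 and 867, and Spred3 at 237 and 308. Ier3, an immediate early survival gene, was 2.27-fold higher in Her2. The cell cycle targets Ccnd1 (9639 and 14666) and Myc (1808 and 2271) and the ETS factor Etv1 (5642 and 9554) stayed within 2-fold. Phlda1 was the exception in direction, 2.59-fold higher in PyMT-F1 (10486 and 4052).

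Lower means of these genes were less marked in the other PyMT tables. With Lung met means the median was -0.85, and 8 of 16 genes were higher in Her2. With the BALB and SEAGN PT means in place of the PyMT-F1 table the median over the same 16 genes was -0.21 and -0.45. For Dusp6 the BALB and SEAGN values were 5263 and 5519, next to 5442 in PyMT-F1, and for Spry4 892 and 751, next to 525. For Dusp4 they were 1839 and 1119, near the Her2 value. The immediate early genes, a faster class of ERK and stress targets, did not share the direction, since 3 of 17 were higher in PyMT-F1 and none in Her2. Among these Egr1 stood at 2385 in PyMT-F1 and 666 in Her2 and Fosb at 93.5 and 42.5.

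Insulin and IGF signaling genes differed in both directions, with adaptors and IGF receptors higher in Her2 and some of the binding proteins higher in PyMT-F1, while the insulin receptor Insr (1684 and 3011) stayed under 2-fold. Irs1 and Irs2, the adaptor proteins that carry the signal from the receptors to PI3K, were 3.64-fold (1577 and 5749) and 5.23-fold (936 and 4891) higher in Her2. The receptor Igf1r was 2.51-fold higher in Her2 (282 and 709). Igf2r, which clears IGF2, was 2.04-fold higher. Of 12 compared genes of this list, 4 were higher in Her2, and the binding proteins Igfbp2 (2.49-fold) and Igfbp5 (2.71-fold) were higher in PyMT-F1. In Lung mets both adaptors kept their direction, with log2 ratios of -2.66 for Irs1 and -2.63 for Irs2, while Igfbp5 came to 0.02. Irs1 in the BALB and SEAGN tables stood at 5369 and 6263, close to the Her2 value.

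**Figure D2:**
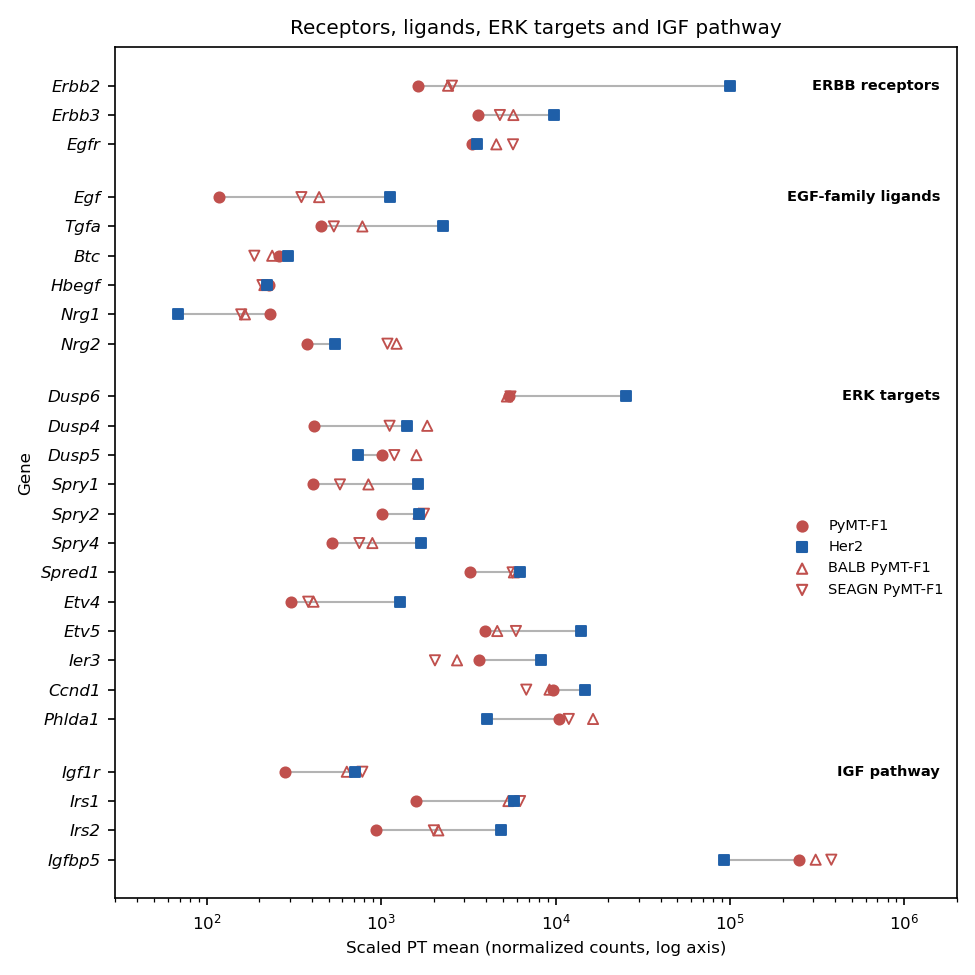
Scaled PT means (log axis) of receptor, ligand, ERK target and IGF pathway genes in PyMT-F1 (filled circles) and Her2 (filled squares), with the BALB and SEAGN crosses as open triangles, 1 group mean per point and no error bars since no sample values were analysed. The Her2 value is the highest of the 4 for Erbb2, Erbb3, Egf, Tgfa, Dusp6 and Etv5, and lowest for Nrg1.

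Milk protein genes differed by large margins, most of them higher in Her2. Of 15 compared, 10 were higher in Her2 and 1 in PyMT-F1, with a median log2 ratio of -1.31. The caseins are the main proteins of milk, and the genes for the calcium-sensitive ones differed most. Csn1s2a stood at 403 in PyMT-F1 and 139565 in Her2 (347-fold), Csn2 at 1603 and 56712 (35.4-fold) and Csn1s2b at 18.8 and 1337 (71.1-fold). Csn3, the kappa-casein that keeps the micelles in solution, was at like levels, 597767 in PyMT-F1 and 616615 in Her2. Csn1s1 was at 97227 in Her2 and had an entry with no number in the PyMT-F1 table. Lalba, the lactose synthase subunit, was 3.37-fold higher in Her2 (9065 and 30513). Wap, the whey acidic protein, went the other way, at 1399.6 in PyMT-F1 and 433 in Her2.

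Several genes that build and release the milk fat globule were higher in Her2 as well. Btn1a1, the butyrophilin of the globule membrane, was 7.34-fold higher (1599 and 11743), and its partner xanthine dehydrogenase (Xdh) was 2.48-fold higher (10124 and 25123). Plin2, which coats lipid droplets, was 2.52-fold higher, Mfge8 2.15-fold and Cidea 2.15-fold. Olah, the thioesterase that sets the medium chain length of milk fat, stood at 36.5 and 369, 10.1-fold higher in Her2. The phosphate transporter Slc34a2 (1342 and 1565), the oxidase Lao1 (2049 and 3552) and the mucin Muc15 (20674 and 12659) did not reach 2-fold. Glycam1 had an entry with no number in PyMT-F1 and 219 in Her2. The reproductive history of the animals was not given in the labels.

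The milk difference was larger in Lung mets, where 12 of the 15 genes were higher in Her2 and the median log2 ratio was -2.42. Csn2 had a log2 ratio of -6.19 there, and Wap one of -2.42, opposite in sign to its PT value of 1.69. In the BALB and SEAGN tables the medians were -1.21 over 10 matched members and -1.47 over 14, and Csn2 stood at 361 in SEAGN.

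Transcription of caseins is driven by prolactin through STAT5, which binds the palindrome TTCNNNGAA. Promoter windows from 250 bases before to 50 bases after the start (RefSeq, GRCm38.p6) were found for 9 of the 15 genes, and 2 held these letters on either strand, against 9.55% of 27025 genes with a window. The 2 are shown because they belong to the caseins with large ratios, with the palindrome in capitals. The Csn2 window is chr5:87699500-87699528 on the minus strand, with the palindrome starting 93 bases before the start of transcription, and the Csn1s2a window is chr5:87774460-87774488 on the plus strand, with the palindrome starting 20 bases after it.
Csn2: tcacgtagacTTCTTGGAAttgaagggac
Csn1s2a: ttatagtgctTTCTTAGAAttacaatgac
A match is a description of letters and not a measured binding site. The genes of the factors themselves had lower means in PyMT-F1, with Stat5a 2.05-fold (1638 and 3354) and Stat5b 1.82-fold (1924 and 3499) higher in Her2, and the prolactin receptor Prlr at 3152 and 3255.

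Luminal progenitor and alveolar genes moved in both directions. Of 15 compared, 5 were higher in Her2 and 4 in PyMT-F1. Transferrin (Trf), an iron carrier that mammary cells secrete into milk, was 5.06-fold higher in Her2 (207663 and 1051370.0), Tspan8 4.05-fold and the receptor Kit 2.26-fold. Lactoferrin (Ltf), the iron-binding defense protein of milk, was 10.3-fold higher in PyMT-F1 (38874 and 3777), Aldh1a3 2.49-fold, Cd14 2.31-fold and Sox9 2.26-fold. The alveolar factor Elf5 was 13163 and 7275, and the neural crest and progenitor factor Sox10 9694 and 11039.

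The label of a luminal tumor was checked against its markers. Both groups expressed the luminal keratins, with Krt8 at 23299 in PyMT-F1 and 15220.1 in Her2 and Krt18 at 27255 and 25016. Of 14 luminal markers 4 were higher in PyMT-F1 and 1 in Her2, and the median log2 ratio was 0.49. The mucin Muc1 was 5.96-fold higher in PyMT-F1 (2203 and 369) and Krt7 3.06-fold, and the adhesion protein Epcam was 2.26-fold higher in Her2 (21925 and 49467). Krt19 had a Her2 value of 72.3 and an entry with no number in PyMT-F1.

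Of 15 listed hormone-sensing genes, 7 could be compared, and most of the others were missing from the Her2 table. The estrogen receptor Esr1 was 4.10-fold higher in Her2 (189 and 774). The progesterone receptor (Pgr, 91.1), the factor Foxa1 (108.6), Cited1 (78.4), Greb1 (12.9) and Areg had values in the PyMT-F1 table and no row in the Her2 table. Tph1 (39.2) had a row in the Her2 table only. Wnt4, a paracrine effector of progesterone, was 7.01-fold higher in PyMT-F1 at low values (50.1 and 7.14), and the factor Tbx3 was 2.66-fold higher (42.1 and 15.8). Gata3 (3703 and 4969), Prlr and Prom1 (2896 and 1671) differed by less than 2-fold. In the BALB and SEAGN tables Gata3 stood at 10836 and 11746, above both.

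Keratins of the basal cell were high in PyMT-F1 and near the minimum in Her2. Krt14 stood at 3656 in PyMT-F1 and 15.6 in Her2, 235-fold, which was the highest ratio of all genes compared. Krt17 was 33.5-fold higher (744 and 22.2), and Krt5, the pairing partner of Krt14, had a value of 1337 in PyMT-F1 and no row in the Her2 table. Trp63, the master factor of the basal state, was 6.55-fold higher (750.2 and 115), Snai2 3.07-fold (106 and 34.5) and the stem cell marker Lgr6 2.84-fold. In all 5 of 10 basal and myoepithelial markers were higher in PyMT-F1 and none in Her2, with a median log2 ratio of 1.12. The contractile members gave no such picture, with Tagln at 1608 and 962 and Mylk at 623 and 598, while Acta2 (1051 in Her2), Myh11 (126), Cnn1 (23.1) and Oxtr (994) had no number in PyMT-F1. The basement membrane integrins Itga6 (9180.4 and 9212) and Itgb4 (3247 and 3764) were at like levels.

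All PyMT tables shared the high basal keratins. Krt14 was at 1659.7 in BALB and 1383 in SEAGN, and Krt17 at 824 and 1049.99. In Lung mets the log2 ratios were 6.60 for Krt14 and 4.97 for Krt17, but 0.58 for Trp63 against 2.71 in PTs. Squamous genes were measured for 5 of 18 listed members, of which Calml3 (1008 and 176) and Sfn (2235 and 452) were higher in PyMT-F1, and galectin-7 (Lgals7), an epithelial lectin of stratified tissue, was 48.1-fold higher (2836 and 59.0). Krt10, a keratin of the epidermis, was at 75.6 and 69.3 in PyMT-F1 and Her2, and Krt1 and loricrin, which define the same tissue, had no row in either table. The part of attached skin in these ratios was not tested beyond these values.

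**Figure D3:**
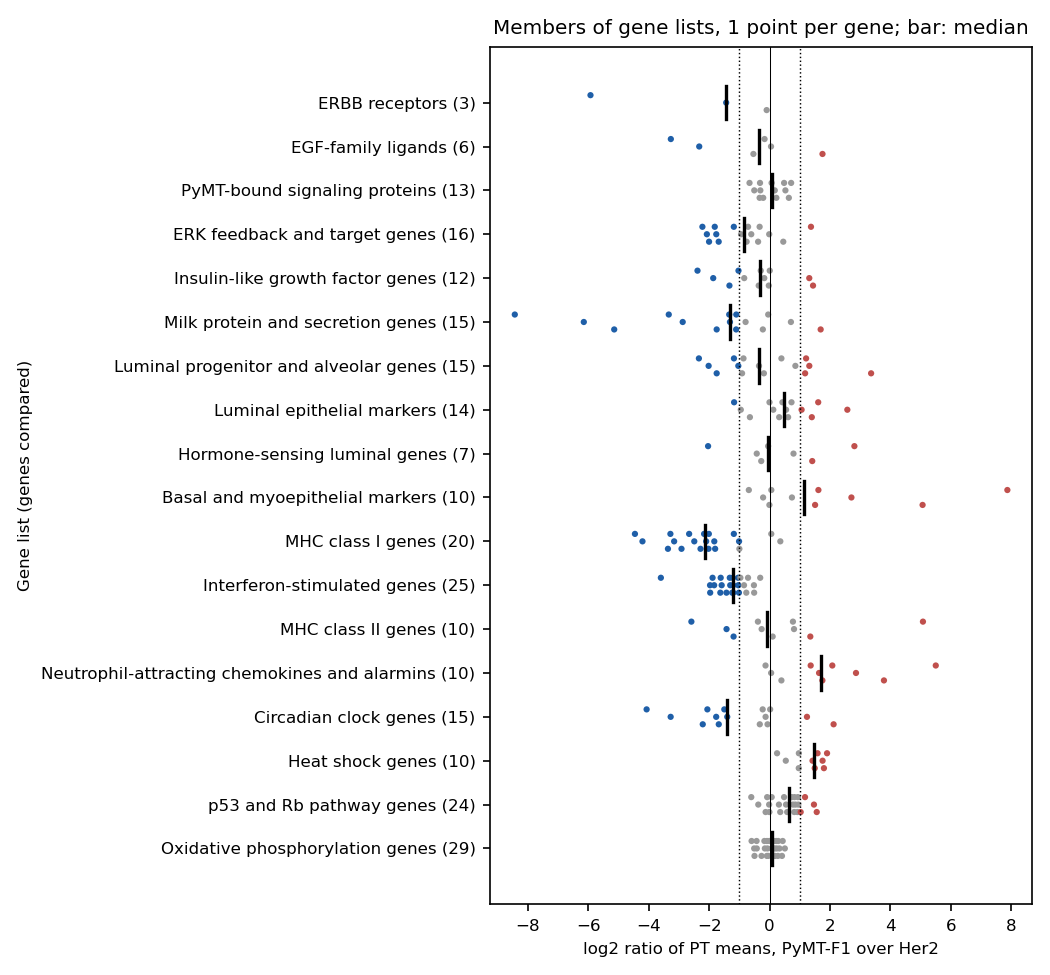
Log2 ratio of PyMT-F1 over Her2 PT means (horizontal axis) for the compared members of 18 gene lists, 1 point per gene with a vertical bar at each list's median, and dotted lines at 2-fold. Points are blue where at least 2-fold higher in Her2, red where at least 2-fold higher in PyMT-F1 and grey otherwise. Milk, MHC class I, interferon, circadian and ERK target genes lie mostly left of 0 (higher in Her2), and basal, heat shock and alarmin genes mostly right of it.

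Growth factor families other than ERBB differed gene by gene. In the Wnt list 5 of 23 genes were higher in PyMT-F1 and 2 in Her2. Axin2 (40.8 and 18.7) and the nuclear factor Tcf7 (134 and 32.6) were higher in PyMT-F1, whereas the related factor Lef1 was 14.5-fold higher in Her2 (11.0 and 159.8). Lef1 was at 208 in BALB and 74.1 in SEAGN, and Axin2 at 1031 and 155, so the 3 PyMT tables differed among themselves for both. Among 8 FGF genes, the receptors Fgfr3 (9.47-fold, 218 and 23.0) and Fgfr2 (2.15-fold, 247 and 115) and the ligand Fgf1 (4.08-fold, 464 and 114) were higher in PyMT-F1. The decoy receptor Fgfrl1 was 2.13-fold higher in Her2. In the TGF-beta and BMP list 3 of 24 genes (12.5%) were higher in Her2 and 1 (4.17%) in PyMT-F1. Both shares were near those over all genes, 9.41% and 5.67%. The latent binding proteins of this list split, Ltbp2 being 8.13-fold higher in Her2 (2338 and 19009.5) and Ltbp1 3.91-fold higher in PyMT-F1 (2318 and 592). In the Notch list 2 of 18 genes (11.1%) were higher in each group, against 5.67% of all genes in PyMT-F1 and 9.41% in Her2. Among them were the target Hey2 in PyMT-F1 (102 and 26.0) and the endothelial receptor Notch4 in Her2 (137 and 370.4).

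MHC class I presents peptides from inside the cell to CD8 T cells, and most of its genes had lower means in PyMT-F1. Of 20 compared genes, 17 were higher in Her2 and none in PyMT-F1, with a median log2 ratio of -2.13. The light chain B2m stood at 14261 in PyMT-F1 and 90340.4 in Her2 (6.33-fold), and the heavy chains H2-D1 at 12906 and 72635 (5.63-fold) and H2-K1 at 12637 and 50933 (4.03-fold). The peptide pump subunit Tap1 was 4.06-fold higher in Her2 and Tap2 2.01-fold, the immunoproteasome subunits Psmb9 4.88-fold and Psmb8 3.56-fold, and the class I transactivator Nlrc5 7.55-fold (132 and 999). H2-Q6 and H2-Q7 were 18.5-fold and 22.0-fold higher, and because these genes are nearly identical and MHC haplotypes vary between inbred strains, their counts are uncertain. H2-T22 (1588 and 1527) and H2-T23 (3585 and 2799.6) differed by less than 2-fold.

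In the other PyMT tables, B2m was at 13475 in BALB and 11296 in SEAGN, near the PyMT-F1 value, whereas Nlrc5 was at 505 and 550.2, between both models. In Lung mets, 12 of the 20 genes were higher in Her2 and the median log2 ratio was -1.22.

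Interferon-stimulated genes, which cells switch on against viruses, had the same direction in PTs. Of 25 compared, 18 were higher in Her2 and none in PyMT-F1, with a median log2 ratio of -1.22. The GTPase Iigp1 was 12.1-fold higher in Her2 (960.1 and 11638), the deconjugase Usp18 3.92-fold (262 and 1027), Gbp3 3.91-fold, Cmpk2 3.70-fold and Mx2 3.57-fold. The regulator Irf7 stood at 1679 and 3854 (2.30-fold), while Isg15 reached 1.42-fold and Oasl1 1.24-fold. Rsad2 (1060.2 in Her2), Ifi27l2a (957), Oas2 (662), Mx1 (455) and Oas3 (309.7) had entries with no number in PyMT-F1. The interferon list lost its PT pattern elsewhere. In Lung mets 4 of the 25 genes were higher in Her2 and the median was -0.36, with Ifit3 at a log2 ratio of 0.93 there against -1.24 in PTs. Against the BALB and SEAGN means the medians over the 22 matched members were -0.015 and -0.54. Among markers of immune cells the median was -0.36 over 12 macrophage markers and -0.25 over 9 T and NK cell markers, and the part of these cells in the interferon ratios was not tested.

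The core of the interferon-stimulated response element can be written GAAANNGAA. Within the same promoter windows it was present in 11 of 18 interferon-stimulated genes and 3 of 15 MHC class I genes with a window, against 9.76% of all genes, searched on both strands. Overlapping matches within one window counted as 1 gene. The following are shown because they belong to B2m and to genes of the list above, with the core in capitals. B2m is chr2:122147538-122147566 (plus strand), Gbp3 is chr3:142559990-142560018 (plus strand), Gbp2 is chr3:142620595-142620623 (plus strand), Ifit1 is chr19:34640770-34640798 (plus strand) and H2-T22, which did not differ by 2-fold, is chr17:36042914-36042942 (minus strand). In all but B2m the core reads on the opposite strand to the gene, so it appears as its reverse complement.
B2m: ataagaacatGAAACTGAAaatgggaaag
Gbp3: aggacacagtTTCAGTTTCtatttcccag
Gbp2: ctcttttagtTTCACTTTCactgtcttaa
Ifit1: aactgcaggcTTCAGTTTCactttccagt
H2-T22: ttggcttagtTTCACTTTCgaatccccaa
The core thus occurred in B2m, which was higher in Her2, and in H2-T22 and H2-T23, which did not differ by 2-fold.

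MHC class II genes, which professional antigen-presenting cells express, showed no common direction. The chains H2-Aa (3136 and 1230.04) and H2-Ab1 (2049 and 1169) and the invariant chain Cd74 (6547 and 3827) had higher means in PyMT-F1, of which H2-Aa passed 2-fold. H2-Eb1 stood at 1385 in PyMT-F1 and 40.9 in Her2, 33.8-fold, and at 676 in SEAGN. The peptide exchange factor gene H2-DMb2 was 6.02-fold higher in Her2. Class II alleles vary between strains in the same way.

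Neutrophil-attracting chemokines and alarmins were higher in PyMT-F1. Of 10 compared, 7 were higher in PyMT-F1 and none in Her2, with a median log2 ratio of 1.70. The acute phase protein Saa1 was 45.4-fold higher (2535 and 55.8), and its near copy Saa2 had a value of 1970.2 in the PyMT-F1 table only. The calprotectin subunits S100a8 (356 and 25.7) and S100a9 (159 and 21.9) were 13.8-fold and 7.28-fold higher, the neutrophil attractant Cxcl1 3.12-fold (353 and 113) and the cytokine Il1b 3.36-fold (137 and 40.8). Of the neutrophil markers that are not alarmins, Csf3r was at 111 and 86.4, Cxcr2 was under the minimum at 27.2 and 3.82, and Retnlg and Ngp had values of 14.1 and 9.57 in the PyMT-F1 table only. The BALB and SEAGN means gave medians of 2.42 and 2.17 for 9 matched genes of the alarmin list. Of the other chemokines 3 of 17 were higher in Her2 and 1 in PyMT-F1, and Cxcl12, the ligand of CXCR4, was 5.81-fold higher in Her2 (301 and 1748). Complement genes numbered 4 of 18 higher in Her2, of which the lectin pathway protease Masp1 was 11.3-fold higher (33.8 and 383).

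Most output and repressor genes of the circadian clock had lower means in PyMT-F1. The clock is a loop in which CLOCK and ARNTL activate the Per, Cry and Nr1d genes, whose proteins then repress it. Of 15 clock genes, 8 were higher in Her2 and 2 in PyMT-F1, with a median log2 ratio of -1.40. Dbp was 16.8-fold higher in Her2 (98.5 and 1655), Nr1d1 9.68-fold (70.3 and 680.2), Per3 4.63-fold, Ciart 4.17-fold and Nr1d2 3.40-fold (1429 and 4866). The activators Clock (2011 and 2355) and Arntl (426 and 420.1) were at like levels. So were the repressors Per1 (1983 and 2172), Per2 (920 and 1152) and Cry1 (426 and 446), all within 2-fold. The 2 genes higher in PyMT-F1 were Npas2 (2.36-fold, 122 and 51.6) and the repressor Bhlhe41 (4.35-fold). The time of day of each harvest was not given. In Lung mets 8 of the 15 genes were higher in Her2 and the median was -1.04, whereas against the BALB and SEAGN means it was 0.13 over 15 matched genes and -0.042 over 14, although Dbp stayed at 221 and 263 there. The activators bind the E-box CACGTG, which was present in the promoter window of 5 of 14 clock genes against 8.09% of all genes. The Ciart window, chr3:95882327-95882356 on the minus strand, is shown because this gene held the element at 3 places.
Ciart: tgcatctagagtCACGTGttgccggtaagc

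Heat shock genes were higher in PyMT-F1. Of 10 compared, 6 were higher in PyMT-F1 and none in Her2, with a median log2 ratio of 1.46. The chaperones Hsp90aa1 (27148 and 10119), Hsph1 (5488 and 1625) and Hspb1 (1943 and 646) were 2.68-fold, 3.38-fold and 3.01-fold higher. Hspa8 (3.48-fold), Hspe1 (3.74-fold) and Hspd1 (2.82-fold) were higher too, and genes of this kind have processed copies that share reads. The strictly inducible Hspa1a was at 1254 and 1055 and Hspa1b at 3879 and 1985, under 2-fold. The BALB and SEAGN medians over 9 matched genes were 0.48 and 0.63, and Hsp90aa1 stood at 10031 and 10145 there, near the Her2 mean. Heat shock factor binds inverted repeats of GAA, and GAANNTTC, which reads the same on both strands, was present in the promoter window of 7 of 8 heat shock genes against 9.04% of all genes. Hspd1 and Hspe1 are transcribed away from each other and their windows share 1 match. It is shown as chr1:55088053-55088082 on the plus strand, because it lies before both genes, beside the outer of the matches of Hspb1 at chr5:135887791-135887820 on the plus strand, with the repeat in capitals. The match was also present in Hspa1a and Hspa1b, which did not reach 2-fold.
Hspe1: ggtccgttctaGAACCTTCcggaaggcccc
Hspb1: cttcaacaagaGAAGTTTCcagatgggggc

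Among metabolic genes, several of lipid and sugar supply had higher means in Her2. Of 18 fatty acid genes 5 were higher in Her2, namely the desaturase Scd1 (4.07-fold, 16556 and 67440.5), Dgat2, malic enzyme (Me1), the regulator Srebf1 (2.69-fold, 13965 and 37530.3) and Acacb, whereas the desaturases Fads1 (3.10-fold) and Fads2 (2.30-fold) and Thrsp (2.97-fold) were higher in PyMT-F1. The synthase Fasn itself stood at 10706 and 8782. The fatty acid receptor Cd36 was 43.9-fold higher in Her2 (545 and 23958), and Fabp4, which adipocytes and capillaries express, 3.09-fold. Of the adipocyte markers, Adipoq and Plin1 had no row in either table and Pparg was at 23.4 and 40.9. Of the 27 gene entries for hypoxia and glycolysis 7 were higher in Her2 and none in PyMT-F1, led by the aldolase Aldoc (5.86-fold, 13103 and 76791), Egln3 (3.23-fold) and the hexokinase Hk1 (2.61-fold), while Slc2a1 (2599 and 3392) and Ldha (43326 and 26841) differed by less than 2-fold. Of 17 NRF2 and glutathione genes 4 were higher in Her2, among them Gsta3 (13.6-fold), Gstm1 (6.43-fold) and Hmox1 (5.58-fold, 656 and 3660.1), and 2 in PyMT-F1, Nqo1 (4.00-fold) and Gsto1 (3.46-fold). None of 29 nuclear-encoded oxidative phosphorylation genes and none of 20 cholesterol synthesis genes reached 2-fold.

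Proliferation genes differed little. None of 25 genes of the G1/S phase and replication and 2 of 25 mitosis genes were higher in PyMT-F1, with median log2 ratios of 0.38 and 0.44, and the 2 were Birc5 (2877 and 1056) and Melk (968 and 448). Neither call held in the other PyMT tables, where Birc5 was at 969.7 in BALB and 915 in SEAGN and Melk at 444 and 386, all below the Her2 means. Genes of the p53 and Rb pathways had somewhat higher means in PyMT-F1, with a median of 0.66 and 4 of 24 genes higher in PyMT-F1. These were Cdkn2b (2.95-fold), Cdkn2a (2.77-fold, 197 and 71.0), Sesn2 and Cdkn1a (2.04-fold, 2063 and 1009.6). In Lung mets the same list reached a median of 1.23 with 13 genes higher in PyMT-F1, and Cdkn2a stood at 954 in PyMT-F1 and 27.5 in Her2 there.

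Matrix genes were mostly within 2-fold, with single members far apart. Of 26 collagen genes 7 were higher in Her2 and 1 in PyMT-F1, and the cartilage collagen Col9a1 was 6.32-fold higher in Her2 (7403 and 46796) while Col7a1, which anchors the epithelium, was 2.97-fold higher in PyMT-F1. The lean to Her2 was not shared by the other PyMT tables. The collagen median log2 ratio was -0.44, but 0.47 with BALB means (25 matched genes) and 0.81 with SEAGN means (26). The membrane protease Mmp16 was 17.3-fold higher in Her2 (269 and 4664), and the secreted protease Adamts1 4.28-fold higher in PyMT-F1. Osteopontin (Spp1), a secreted integrin ligand, stood at 91876 in PyMT-F1 and 9047 in Her2, 10.2-fold, and at 70856 and 79465 in BALB and SEAGN. In Lung mets its log2 ratio was 0.87, where the Her2 mean was 71448. The adhesion protein Ncam1 was 8.47-fold higher in PyMT-F1 (665 and 78.6) and claudin-2 (Cldn2), which forms a cation pore in tight junctions, 7.43-fold (3890.2 and 524).

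Markers of other cells in the tissue moved with the groups to some degree. The median log2 ratio was -0.46 over 12 endothelial markers, -0.35 over 11 fibroblast markers and -1.49 over 7 pericyte and smooth muscle markers, 5 of which were higher in Her2 (Abcc9, Kcnj8, Des, Higd1b and Rgs5). The skeletal muscle genes Acta1 (7.50 and 149), Ckm (7.38 and 121) and Mylpf (20.0 and 81.8) were all higher in Her2, and the BALB mean of Acta1 was 1412. Of 5 erythroid (red blood cell) markers 3 were higher in Her2, with a median log2 ratio of -1.70. These were the hemoglobin genes Hba-a1 (5.64-fold) and Hbb-bs (3.25-fold) and Alas2 (3.93-fold). Hbb-bt (524 and 787) stayed under 2-fold, as did Hba-a2, which was at 1391 in PyMT-F1 and 764 in Her2. Lung genes were measurable in these mammary tumors, where Lamp3 (138 and 18.6) and Ager (211 and 62.5) were higher in PyMT-F1 and Sftpd (191 and 1213) in Her2. The part of these cells in the ratios of other genes was not tested.

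Features of the libraries also moved with the groups. The 13 genes of the mitochondrial genome had a median log2 ratio of 1.07, with 7 higher in PyMT-F1 and none in Her2. The nuclear RNAs Malat1 (17422 and 70882) and Kcnq1ot1 (485 and 1632) were higher in Her2. Larger ratios in the same direction were those of Rn7s2 (257 and 6988, 27.2-fold), Rn7s1 (279 and 7410, 26.6-fold) and 7SK (158 and 2256, 14.3-fold). Snhg11 went the other way, 11.0-fold higher in PyMT-F1 (299 and 27.3). Of 23 histone genes, many of which lack a poly(A) tail, 11 were higher in Her2 and 1 in PyMT-F1. Malat1 stood at 658055 in BALB and 598428 in SEAGN, above both. Kcnq1ot1 (23619 and 28939) and Rn7s1 (1210320 and 913389) were above both there too, while Rn7s2 (1886 and 1350) lay between. The BALB and SEAGN tables thus differ from the other pair in several of these RNAs. Among 80 ribosomal protein symbols, 8 were higher in PyMT-F1 and none in Her2. They were led by Rps2 (55.7-fold) and Rpl29 (30.7-fold), which have processed copies elsewhere in the genome. The histone and ribosomal groups and Rn7s1, Rn7s2, 7SK and Snhg11 were chosen after their values were seen. What part library preparation and counting had in any ratio was not tested.

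The genes farthest apart included several outside the lists. Higher in Her2 were Duox1, an oxidase that makes hydrogen peroxide (205 and 29423, 144-fold), Gldc, the decarboxylase of the glycine cleavage system (18.8 and 2819, 149.9-fold), the mitochondrial carrier Slc25a34 (76.6 and 11395, 149-fold) and the protocadherin Pcdh10 (17.8 and 2600.2, 146-fold). These were followed by the mitochondrial calcium-binding protein Efhd1 (71.5-fold), Tmem82 (65.3-fold), the transporters Flvcr2 (50.8-fold) and Slc6a2, the noradrenaline transporter (47.2-fold), and the apolipoprotein Apoc1 (49.6-fold). All 9 had log2 ratios between -8.97 and -4.29 in Lung mets. Their values in BALB and SEAGN, where matched, were on the PyMT-F1 side, with Duox1 at 767 and 1069.6 and Gldc at 45.3 and 51.5. The histone H3c8 (353-fold) belongs to the uncertain group named above.

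Higher in PyMT-F1 were Hpse2, a heparanase relative that does not cut heparan sulfate (513 and 2.82, 182-fold), and Muc4, a membrane mucin known to bind ERBB2 (454 and 5.92, 76.8-fold). The calcium pump Atp2a3 (1631 and 60.0, 27.2-fold), the magnesium channel Trpm6 (586 and 15.5, 37.7-fold), the actin-binding neurabin Ppp1r9a (1194 and 35.6, 33.6-fold) and Fam167a (642 and 15.3, 42.0-fold) followed. The importin Kpna2 was 44.1-fold higher and has a processed copy. In Lung mets the log2 ratio of Hpse2 was 3.36 and that of Trpm6 1.90, smaller than their PT values of 7.51 and 5.24. 2310057J18Rik, of no known role, stood at 10081 and 404 in PyMT-F1 and Her2, and at 48609.9 in BALB and 1446 in SEAGN.

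The FVB C3Tag model, driven by the SV40 large T antigen on the same FVB background as Her2, gave values on the same scale for 16311 of the joined genes. Its PT means of several genes that were high in Her2 lay on the PyMT-F1 side, with Erbb2 at 3285, Duox1 at 199.9, Gldc at 12.3, Dbp at 210.1, B2m at 15769 and Dusp6 at 7274. Likewise Krt14 stood at 5625 and Krt17 at 2503 in C3Tag, above the Her2 means. Irs1 at 3319.5 and H2-D1 at 33235 lay between both models, and H2-Eb1 at 25.1 was as low as in Her2. Its means come from a table of its own, and its tumors differ from both others in driver.

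**Figure D4:**
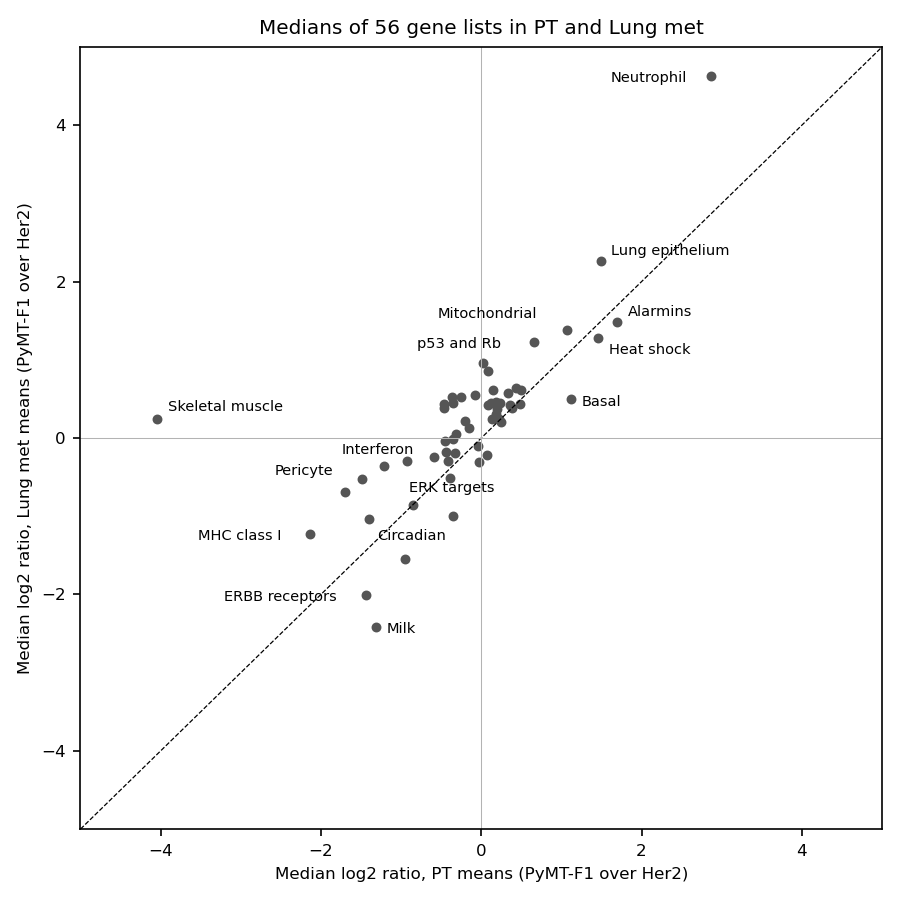
Median log2 ratio of PyMT-F1 over Her2 for each gene list with at least 3 compared members, in PT means (horizontal axis) and Lung met means of the same tables (vertical axis), with a diagonal line of equality. The milk list lies lower in Lung mets than in PTs (-2.42 against -1.31), the interferon list nearer to 0 (-0.36 against -1.22), and skeletal muscle markers lie near 0 in Lung mets.

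Over all 60 lists, 989 distinct genes were listed and 765 were compared. Of the others, 132 had no row in either table, 45 had a value in the PyMT-F1 table only, 11 in the Her2 table only, 21 had an entry with no number in PyMT-F1 and 15 were under the minimum. The entries with no number, 116 in the PyMT-F1 table of which 86 had a Her2 mean, included several interferon and contractile genes, so those lists were described from their remaining members.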

How the data were processed

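Bulk RNA-seq of PT and Lung met tissue was measured in the labelled samples. The values deposited by the authors are least-squares group means per tissue and model, made in Partek Flow from aligned, gene-level and normalized counts, and are treated here as a signal with no SD or n. The normalization is not named in the sources used here. Per the methods the build was mm9 or mm10, whereas the submitters' processing notes name mm39, STAR 2.7.8a and DESeq2. The labels name a stranded total RNA kit with ribosomal depletion, the methods mRNA libraries. Columns with the authors' own comparisons of Lung met with PT (p-values, FDR, ratios and fold changes) were not used.

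Means were divided by their median over the joined genes and printed on the Her2 scale, and no test was run because 1 mean per group leaves no replicate error. The depth of each sample is unknown. BALB and SEAGN means were joined by gene symbols that were unique in both tables, and C3Tag means by identifier. The gene lists and the genes compared were chosen with earlier results of these data known. Named genes were compared members of the ERBB, ligand, milk, hormone-sensing and ERK lists, the largest ratios of each other list with members needed to account for it, and the 15 highest and 15 lowest protein-coding genes by log2 ratio with a pseudocount of 10. Some listed genes are not reported here by name. No gene was listed at 0. The scaling and calling steps were tested on simulated data. Promoter windows are from RefSeq (GRCm38.p6). Python 3.11.15, numpy 2.4.6, pandas 2.3.3 and matplotlib 3.10.9 were used.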

Additional observations from a re-analysis of the deposited data

How the results depend on the processing

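No paired analysis was possible because the tables hold group means and no value of a single sample, and no replicate could be left out for the same reason. Another scaling shifts every log2 ratio by the same amount, so it cannot set single genes or lists apart. Under 4 other scalings the median over all genes lay between -0.028 and 0.035. All 59 list medians and all 228 named genes therefore moved by less than 1.5-fold. Genes higher in PyMT-F1 made up 35.5% to 40.6% of those past 2-fold, against 37.6% as reported. Dropping the minimum moved no list median by more than 1.5-fold, and it could not change the named genes, which had all passed it. A pseudocount of 10 moved 16 named genes and 1 list median by more than 1.5-fold with no change of direction. With a minimum of 50 in both tables, 581 genes were higher in PyMT-F1 and 952 in Her2, because fewer genes were compared, and 6 list medians moved by more than 1.5-fold, all with the same direction. These were the basal (0.40), squamous (1.22), neutrophil (0.36), mast cell (-1.18), B and plasma cell (-1.23) and lung epithelium (0.48) medians.

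With Lung met means and the minimum applied to them, 1406 genes were higher in PyMT-F1. Of 178 named genes past 2-fold in PTs, 142 remained past it there and 169 had the same direction. Turns of direction were counted only for medians and named genes at least 2-fold apart in PTs. By this count the direction turned for skeletal muscle markers (median log2 ratio 0.24), Des (0.95), Higd1b (0.48), Hoxa5 (0.44), Ifit1 (0.58), Ifit3 (0.93), Mrc1 (0.60), Mylpf (0.24), Sftpd (1.76) and Wap (-2.42). Smaller medians were not counted, and some changed sign. Examples are endothelial (-0.46 in PTs, 0.43 in Lung mets), fibroblast (-0.35 and 0.44) and macrophage markers (-0.36 and 0.52).

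2 alternatives chosen after seeing the data put the BALB or the SEAGN PyMT-F1 PT means in place of the PyMT-F1 table. Then 2230 (BALB) and 2354 (SEAGN) genes were higher in PyMT-F1, 60.6% and 61.1% of those past 2-fold. Turns of direction were again counted only for medians and named genes at least 2-fold apart as reported. Smaller medians were not counted, and some changed sign, such as collagens (-0.44 as reported, 0.46 with BALB, 0.80 with SEAGN). Direction held for 130 of 150 and 142 of 156 named genes past 2-fold. With BALB it turned for the medians of the circadian (0.12), mitochondrial (-1.71, 1 gene), interferon (0.0104, 26 genes), pericyte (1.01, 10 genes), skeletal muscle (2.06, 2 genes) and lung epithelium (-1.88, 3 genes) lists, in which the minimum was applied anew and the members changed, and for Acacb (1.41), Acta1 (3.23), Birc5 (-0.14), Cd14 (-0.0155), Cdh3 (0.77), Ciart (0.45), Des (1.69), Dusp4 (0.37), Fads2 (-0.0565), Hsp90aa1 (-0.0262), Ifit1 (0.49), Irf7 (0.61), Kcnq1ot1 (3.84), Lef1 (0.37), Malat1 (3.20), Melk (-0.0273), Mvb12b (0.17), Mylpf (0.90), Notch4 (0.83) and Usp18 (0.0272). With SEAGN it turned for the mitochondrial (-2.04, 1 gene), skeletal muscle (0.91, Acta1 alone) and lung epithelium (-0.87, 4 genes) medians and for Acacb (0.62), Acta1 (0.91), Birc5 (-0.22), Cdh3 (1.04), Ciart (0.20), Hsp90aa1 (-0.0135), Igf1r (0.12), Irs1 (0.11), Kcnq1ot1 (4.13), Malat1 (3.06), Melk (-0.23), Mvb12b (0.43), Notch4 (0.93) and Sfn (-0.29). Over matched members of the comparison itself, with no new minimum, the BALB medians were -0.015 for interferon and -0.016 for pericyte genes, which kept their sign near 0, and 0.13 for circadian, -1.70 for mitochondrial (1 gene), 2.08 for skeletal muscle (2 genes) and -0.68 for lung genes (5 genes), while the SEAGN medians were -2.02 (1 gene), 0.93 (1 gene) and -0.36 (5 genes) for the last 3. The cause was not tested. Depth is unknown, so values near the minimum carry a counting error that could not be computed.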

Other observations

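Further lists not described above also held genes that stood apart. In the unfolded protein response list 1 of 17 genes (5.88%, against 9.41% of all genes) was higher in Her2. This was the pseudokinase Trib3, with scaled PT means of 577 in PyMT-F1 and 2182 in Her2, and its log2 ratio in Lung mets was -2.24. Among 12 epithelial-mesenchymal transition genes, the repressor Snai1 was at 108 in PyMT-F1 and 43.8 in Her2, whereas P-cadherin (Cdh3), often used as a basal marker, was 2.65-fold higher in Her2 (71.0 and 188), opposite to the basal keratins. Vimentin (Vim) stood at 3912 and 7654 in PTs and at 11473 and 4682 in Lung mets, so its direction turned between tissues. Of 6 compared Hox genes 2 were higher in Her2, Hoxa7 (10.6 and 75.9) and Hoxa5 (16.9 and 46.4), all at low values.

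Of 10 genes known as inherited modifiers of mammary tumor metastasis, 1 was higher in Her2 (10%, against 9.41% of all genes). This was Mvb12b (2.18-fold, 360.5 and 787), and the nuclear pore protein Nup210 (923 and 544) had a higher PyMT-F1 mean below 2-fold. The macrophage genes Arg1 (3.77-fold, 2133 and 8044) and Mrc1 (3.28-fold, 388 and 1275), both used as markers of the wound-healing state, were higher in Her2, while the pan-macrophage list had a median log2 ratio of -0.36. In Lung mets the log2 ratio was -1.95 for Arg1 and 0.60 for Mrc1.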
